A study of Homo sapiens with 12 samples.

Results

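TC-71-R, a derivative of the Ewing sarcoma cell line TC-71 labelled as resistant to the small molecule YK-4-279, was compared with the parental line by RNA sequencing. The comparison took every library titled TC-71-R or TC-71 parental, 3 of each, which is 6 of the 12 libraries of the study. The other 6 belong to a second Ewing sarcoma line, A4573, and its resistant derivative, and enter below only where the change in the 2 lines was tested against each other. Both TC-71 groups grew in the same serum-containing RPMI medium. The parental libraries came from cells given the solvent DMSO, and the resistant ones from cells given YK-4-279 at 400 µM as the labels write it (650 µM for A4573-R). Whether µM or nM is meant could not be checked here, so the doses are uncertain in unit. Resistance and the presence of the compound therefore go together in these samples and cannot be told apart. TC-71-R is 1 derivative of 1 line, and the labels do not say whether libraries 1 to 3 of a group came from separate cultures. The p-values below therefore measure the spread between these libraries, which may be technical.

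Ewing sarcoma is a bone and soft tissue tumour driven by a fusion of the RNA-binding protein EWS (gene EWSR1) with an ETS transcription factor, most often FLI1. The fusion protein activates and represses a wide set of genes and also binds the splicing machinery. YK-4-279 was developed to block the contact between EWS-FLI1 and RNA helicase A (gene DHX9), and it has since also been described as a compound that disturbs microtubules. The design asks which transcripts differ in TC-71 cells that grow in its presence.

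Expression is given as counts per 1000000 reads of the authors' scaled library size (CPM). Changes are differences in log2(CPM + 1), resistant minus parental, tested with limma and Benjamini-Hochberg adjustment over 13368 genes that reached 1 CPM in at least 3 of the 6 libraries. An adjusted p under 0.05 is called a change. A change on this scale is smaller than the ratio of CPM values for low genes. Named genes received 43.98 to 62.1 M reads per library (M, 1000000). The parental libraries correlated with the resistant ones at r = 0.936 to 0.939 across genes, and libraries of one group with each other at 0.997 to 0.999. The biological coefficient of variation was 2.72% among parental and 5.65% among resistant libraries. Resistant library 2 lay farthest from its group on the second principal component, which held 1.78% of the variance against 96.5% for the first, the one that separated the groups. Mitochondrially encoded genes took 4.20%, 3.94% and 4.72% of the scaled total in the parental libraries and 4.27%, 5.07% and 3.26% in the resistant ones. These shares overlapped, and the exact 2-sided permutation test gave p = 1 (the smallest possible with 3 against 3 is 0.1).

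Markers of Ewing sarcoma cells were present in both groups. NKX2-2 was at 18.8 to 20.1 CPM, NR0B1 at 187 to 200.1 CPM, STEAP1 at 124 to 243 CPM and PAX7 at 112 to 90.2 CPM (parental mean to resistant mean). CD99, the surface protein used in diagnosis, was at 0.00772 CPM in the parental libraries and at 0 in the resistant ones. The marker used most for this tumour was therefore absent from these counts, and the check of the cell type rests on the others. Why CD99 received almost no reads was not tested, so its count does not show that the cells lack it. Of 18 blood cell markers, 5 were at 0 in every library and the summed level was 2.56 to 3.18 CPM in the parental libraries and 3.44 to 3.87 CPM in the resistant ones. The 10 endothelial markers summed to 0.507 to 0.668 CPM in the parental libraries and 0.643 to 0.866 CPM in the resistant ones. Not every other lineage was near silence. The 14 skeletal muscle markers summed to 154 to 157 CPM in the parental and 160 to 168 CPM in the resistant libraries, though 10 of them stayed under 1 CPM in all 6. Fibroblast markers summed to 183 to 188 CPM in the parental and 226 to 231 CPM in the resistant libraries. Epithelial markers summed to 121 to 126 CPM in the parental libraries and 35.6 to 39.2 CPM in the resistant ones, mostly from CLDN1, KRT18 and ESRP1, while KRT5 and KRT7 were at 0 in every library.

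The separation of TC-71-R from its parent was broad and went both ways. Of 13368 genes, 10958 (82.0%) were called, 5465 higher (40.9%) and 5493 lower (41.1%) in TC-71-R. Libraries of the 2 groups did not overlap for 11127 genes (83.2%). Most changes were small, with a median absolute change of 0.348, and 1483 genes (11.1%) changed 2-fold or more on the log2 scale. Of these, 649 were higher (4.85%) and 834 lower (6.24%). Across other pseudocounts and tests the 2-fold count ran from 1075 to 2117. A change of 4-fold or more was called for 73 higher and 128 lower genes. The median over all tested genes was -0.0021, which is the reference for the list medians below. For the list counts below, the reference (background) is 40.9% higher and 41.1% lower.

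**Figure D1:**
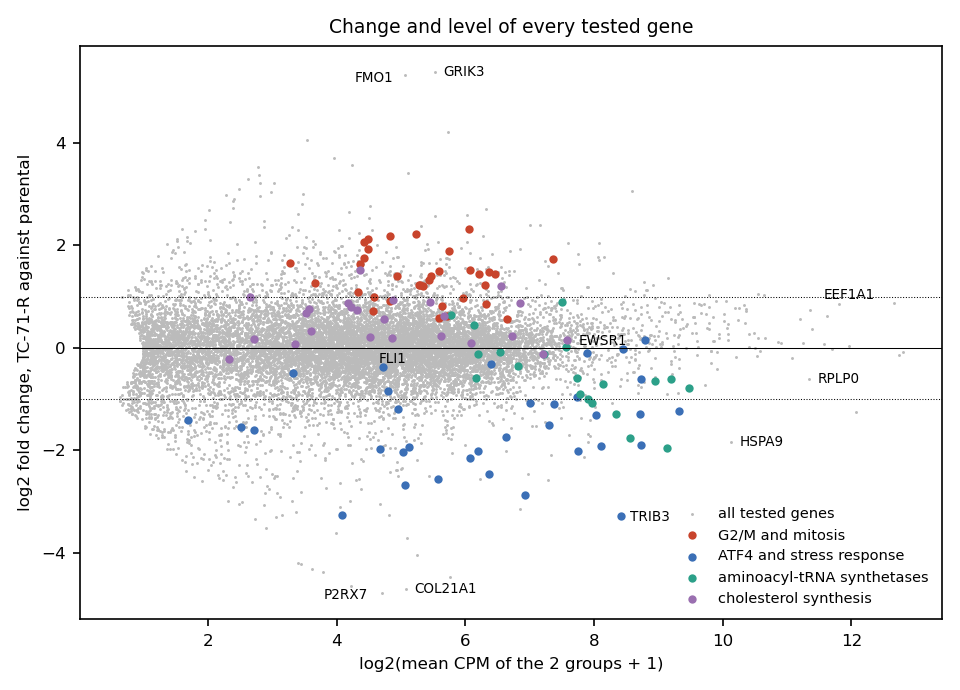
Log2 fold change of TC-71-R against TC-71 parental (vertical axis) and log2 of the mean CPM of both groups plus 1 (horizontal axis) for each tested gene, with 4 gene lists in colour and dotted lines at a change of 2-fold. The 34 mitosis genes lie above 0, and 32 of 34 ATF4 and stress response genes lie below it with an adjusted p under 0.05.

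The fusion's own genes moved little, each by under 2-fold. FLI1 (chr11:128686535-128813267, GRCh38, GENCODE v29), whose 3′ part lies in the fusion transcript, was at 23.8, 23.6 and 23.4 CPM in the parental and 21.03, 19.3 and 20.6 CPM in the resistant libraries. The groups did not overlap, and the mean fell from 23.6 to 20.3 CPM (log2 change -0.21, SE 0.04, adjusted p = 0.000699). EWSR1 (chr22:29268009-29300525) was at 187, 185 and 189 CPM in the parental and 202, 208 and 209 CPM in the resistant libraries. Its rise of 0.14 (SE 0.03, adjusted p = 0.000958) did not pass when each library was scaled to its named genes (adjusted p = 0.0652) or under quantile normalization (adjusted p = 0.231). Gene counts do not separate fusion from normal transcripts. DHX9 (chr1:182839369-182887751), the helicase whose contact with the fusion YK-4-279 was designed to block, was at 209, 205 and 209 CPM in the parental and 303, 266 and 304 CPM in the resistant libraries. Every resistant library was above every parental one (log2 change 0.48, SE 0.05, adjusted p = 3.17e-06). The related RNA-binding protein TAF15 did not pass (105 to 99.1 CPM). ERG, the ETS gene that replaces FLI1 in some tumours, stayed under 1 CPM in all 6 libraries.

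A small set of genes went from near silence to clear expression in TC-71-R. GRIK3 (chr1:36795527-37034129), which encodes a kainate-type glutamate receptor subunit, was at 1.3, 0.966 and 1.16 CPM in the parental and 86.3, 94.04 and 86.6 CPM in the resistant libraries. Its mean was 77.8 times the parental mean (log2 change 5.39, SE 0.06, adjusted p = 4.73e-13). FMO1 (chr1:171248471-171285978), a flavin-containing monooxygenase that oxidizes drugs, was at 0.763, 0.507 and 0.6099 CPM in the parental and 64.8, 61.5 and 65.2 CPM in the resistant libraries, with a log2 change of 5.32 (SE 0.06). In both cases the 3 resistant libraries stood close together and far above the parental ones. PAGE1 (chrX:49687450-49695993), a cancer-testis antigen, was at 4.52, 4.59 and 4.17 CPM in the parental and 101, 97.4 and 99.5 CPM in the resistant libraries (log2 change 4.21). RAP1GAP2 (chr17:2755705-3037739), which switches off the small GTPase RAP1, was at 0.262, 0.374 and 0.344 CPM in the parental and 20.6, 21.9 and 20.4 CPM in the resistant libraries (log2 change 4.05). NEUROD2, a neuronal transcription factor, was at 1.13, 1.17 and 1.297 CPM in the parental and 28.99, 27.3 and 27.3 CPM in the resistant libraries (log2 change 3.71). UTS2, which encodes the vasoactive peptide urotensin 2, was already expressed in the parent, at 79.1, 81.1 and 82.8 CPM, and reached 696, 633 and 725 CPM. They are part of the 14 largest rises among called genes with at least 5 CPM in the higher group and no overlap between groups. Absence of overlap was thus a condition of choice and is no separate result. The set also took in MAGEC1 (3.56), SGSM1 (3.53), YPEL3 (3.42) and NOS1 (3.37), and PLEKHG4B (3.30), INHA (3.22), AKR1C3 (3.21) and FAM3B (3.10). NOS1 makes nitric oxide in neurons, INHA is the inhibin alpha subunit and AKR1C3 is an aldo-keto reductase acting on steroids and prostaglandins. Adjusted p over these 14 genes ranged from 3.08e-13 to 9.41e-11.

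Another set was nearly lost. P2RX7 (chr12:121132819-121188032), an ATP-gated ion channel, was at 49.3, 50.7 and 47.7 CPM in the parental and 0.77, 1.01 and 0.691 CPM in the resistant libraries. Its mean fell from 49.2 ± 1.52 CPM (SD, n = 3) to 0.823 ± 0.166 CPM (SD, n = 3), a log2 change of -4.79 (SE 0.07, adjusted p = 1.02e-12). COL21A1 (chr6:56056590-56394094), a fibril-associated collagen, was at 64.7, 64.3 and 63.8 CPM in the parental and 1.61, 1.49 and 1.41 CPM in the resistant libraries (log2 change -4.70). The groups were far apart for both of them. SPX, which encodes the peptide spexin, was at 104, 102 and 103 CPM in the parental and 4.07, 3.61 and 3.34 CPM in the resistant libraries (log2 change -4.48). HOXB9, a posterior homeobox factor, was at 60.4, 60.8 and 65.3 CPM in the parental and 4.09, 3.66 and 3.64 CPM in the resistant libraries (log2 change -3.72). LAMP3, a lysosomal membrane protein, was at 19.1, 18.03 and 19.6 CPM in the parental and 0.118, 0.0393 and 0.0722 CPM in the resistant libraries (log2 change -4.21). For LAMP3 the resistant values rest on a few reads per library. The 14 largest falls were chosen by the same conditions. They also took in INHBE (-4.38), KLHDC7B (-4.32), OSTN (-4.21) and AKNA (-4.04), and IL20RB (-3.62), CES1 (-3.52), NMNAT2 (-3.34) and C6 (-3.30). INHBE encodes the activin beta E subunit, CES1 a carboxylesterase, NMNAT2 a neuronal NAD-synthesizing enzyme and C6 a complement component. Adjusted p over the 14 ranged from 3.08e-13 to 3.19e-11.

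**Figure D2:**
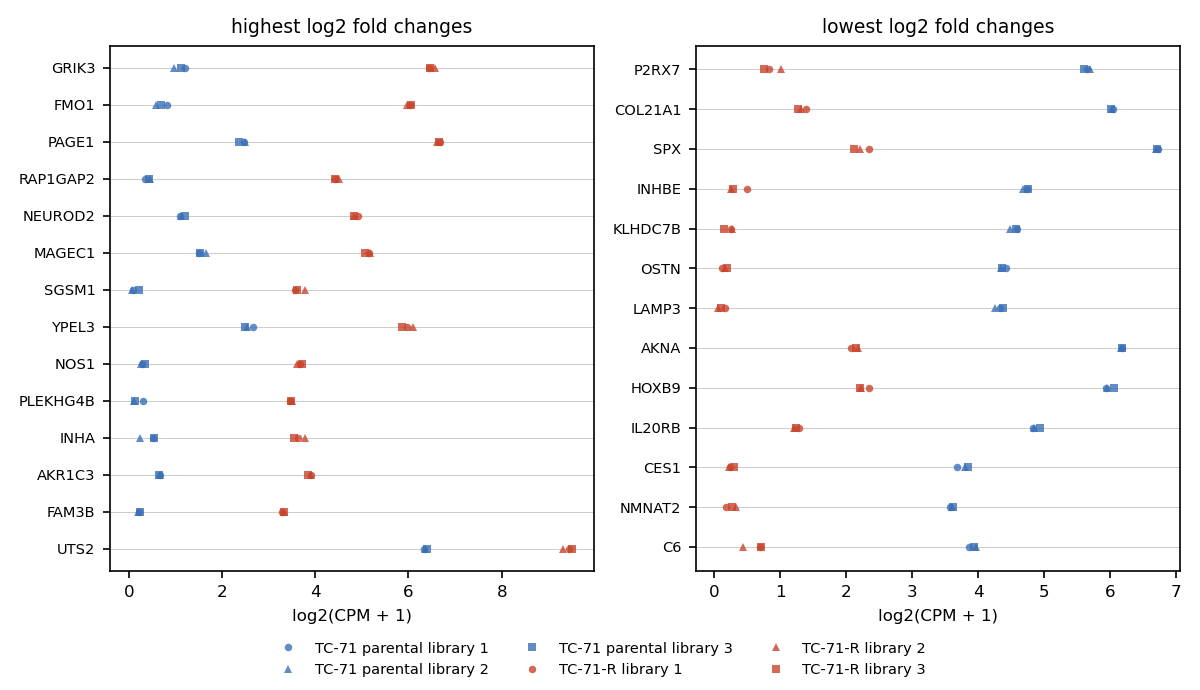
Level of the 14 genes with the highest (left) and 13 of the 14 with the lowest (right) log2 fold change in each of the 6 libraries, as log2(CPM + 1). Parental libraries are blue and resistant ones red, with 1 symbol per library. Only genes whose groups do not overlap could be chosen, so the absence of overlap is no separate result. GRIK3 was at 1.3, 0.966 and 1.16 CPM in the parental and 86.3, 94.04 and 86.6 CPM in the resistant libraries.

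Measured in CPM rather than in fold, the greatest gains were in genes of the translation machinery and the cytoskeleton. EEF1A1, the elongation factor that brings tRNA to the ribosome, went from 4588 ± 141 CPM (SD, n = 3) to 8368 ± 172 CPM (SD, n = 3). ACTG1, a cytoplasmic actin, went from 2554 to 4635 CPM, EEF2 from 1964 to 3254 CPM, RPL3 from 1047 to 2139.8 CPM and RPL13A from 974 to 2021 CPM. Log2 changes of these 5 genes lay between 0.73 and 1.05. MT-CO3 of the respiratory chain gained as well (2482 to 3833 CPM). The greatest losses were in MT-RNR2, the large mitochondrial ribosomal RNA (6009 to 2584 CPM), in HSPA9 and in RPLP0 (3144 to 2063 CPM). HSPA9, the HSP70 chaperone that pulls proteins into mitochondria, was at 1729, 1754 and 1754 CPM in the parental and 499, 494 and 471 CPM in the resistant libraries (log2 change -1.84). TRIB3, WARS and XPOT, described next, complete the 6. Many of these genes have near-identical pseudogene copies, so their absolute levels are uncertain.

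Genes switched on by the transcription factor ATF4 were lower in TC-71-R. When cells lack amino acids or carry misfolded protein, kinases phosphorylate the initiation factor eIF2, translation slows and ATF4 is made. ATF4 then switches on genes for amino acid synthesis and uptake, tRNA charging and, under long stress, cell death. Of 34 genes of this programme, 32 were lower in TC-71-R, 1 was higher and 1 did not pass. By background, 41.1% of tested genes were lower. This list was chosen with earlier results of these data known, so the contrast is a description and no independent test. The list's median change was -1.52, and 25 members fell 2-fold or more (6.24% of all tested genes did). The summed level of the list was 7587 to 7716 CPM in the parental libraries and 3315 to 3402 CPM in the resistant ones.

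Regulators and feedback genes of this response led these falls. TRIB3 (chr20:362835-397559), a pseudokinase that restrains ATF4, was at 607, 626 and 632 CPM in the parental and 64.4, 68.6 and 55.3 CPM in the resistant libraries, a wide gap with no overlap. Its log2 change was -3.29 (SE 0.06, adjusted p = 9.53e-12). CHAC1 (chr15:40952962-40956519), which degrades glutathione, was at 57.6, 54.3 and 57.6 CPM in the parental and 7.83, 8.38 and 7.84 CPM in the resistant libraries (log2 change -2.67). DDIT3, the death-linked factor CHOP, was at 428, 442 and 438 CPM in the parental and 116, 136 and 94.4 CPM in the resistant libraries (log2 change -1.93). ATF3, a stress-induced repressor, was at 50.1, 51.2 and 53.99 CPM in the parental and 11.7, 12.1 and 12.1 CPM in the resistant libraries (log2 change -2.03). Levels in these genes were low in each resistant library and high in each parental one. SESN2, a sensor of leucine that damps mTORC1, was at 79.8, 78 and 82.8 CPM in the parental and 11.9, 13.5 and 12.7 CPM in the resistant libraries (log2 change -2.57). GDF15, a secreted stress cytokine, fell from 29.6 to 2.18 CPM. CEBPG, the partner of ATF4 on DNA, and PPP1R15A, which reverses eIF2 phosphorylation, changed by -2.47 and -2.01. The transcript of ATF4 itself was the 1 member called higher (407, 418 and 424 CPM in the parental and 478, 476 and 439 CPM in the resistant libraries, log2 change 0.16), and that call was lost with libraries scaled to their named genes (adjusted p = 0.0519) and under quantile normalization (adjusted p = 0.495). The kinase gene EIF2AK3 (PERK) changed by -0.24.

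The metabolic arm of the list fell with them. ALDH1L2, a mitochondrial folate enzyme, was at 214, 213 and 214 CPM in the parental and 29.6, 26.7 and 28.9 CPM in the resistant libraries (log2 change -2.87). Serine and folate genes followed with PSAT1 (-1.32), MTHFD2 (-1.29), PSPH (-0.84) and SHMT2 (-0.60), while PHGDH, the first enzyme of serine synthesis, did not pass (351 to 344 CPM) except under those 2 scalings, where it was lower (log2 change -0.10 and -0.15). ASNS, which makes asparagine, changed by -1.61 from a low level (8.88 to 2.25 CPM), and PYCR1 of proline synthesis by -1.10. Amino acid carriers fell too: SLC7A11, the cystine importer, changed from 39.6 to 9.404 CPM and SLC7A5, the leucine importer, from 667 to 179 CPM. SLC7A1, for cationic amino acids, was at 344 to 84.6 CPM and SLC3A2, the shared heavy chain, at 281 to 144 CPM. All 4 changes passed the test.

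Enzymes that load amino acids onto tRNA went the same way, with 3 exceptions. Of 20 cytosolic aminoacyl-tRNA synthetase genes, 15 were lower, 3 higher and 2 did not pass (background 41.1% lower and 40.9% higher). Their median change was -0.60. WARS, for tryptophan, was at 901, 892 and 900.3 CPM in the parental and 241, 214 and 234 CPM in the resistant libraries (log2 change -1.97, SE 0.04). MARS, for methionine, was at 577, 581 and 595 CPM in the parental and 172, 171 and 172 CPM in the resistant libraries (log2 change -1.76). GARS and NARS followed at -1.29 and -1.08. The 3 that rose were QARS (0.89), RARS (0.64) and FARSA (0.45). XPOT, which carries tRNA out of the nucleus, was at 899.8, 895 and 897 CPM in the parental and 383, 393 and 372 CPM in the resistant libraries (log2 change -1.23). For WARS, MARS and XPOT every resistant library was under 45% of every parental one.

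**Figure D3:**
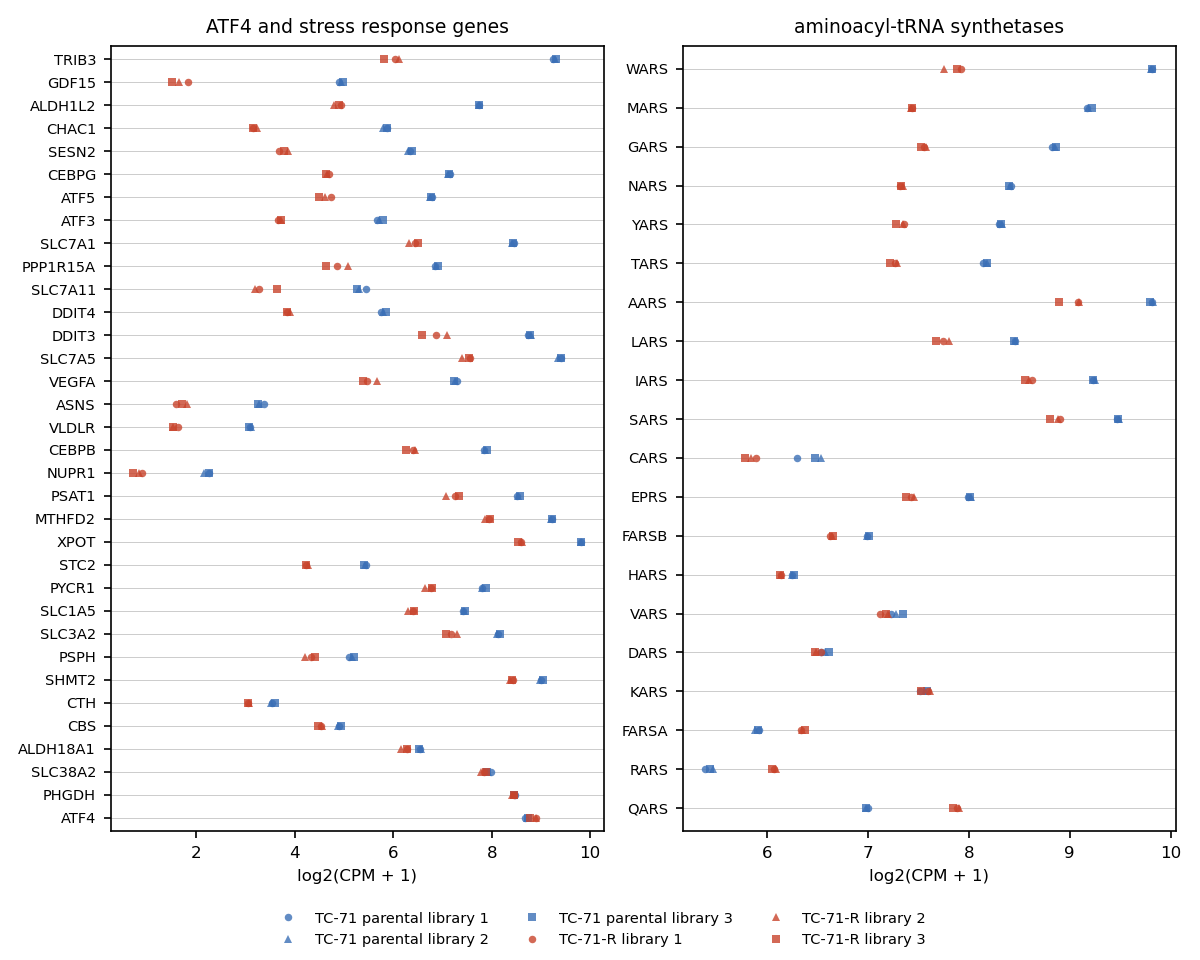
Level of 34 ATF4 and stress response genes (left) and 20 cytosolic aminoacyl-tRNA synthetase genes (right) in each library, as log2(CPM + 1), ordered by log2 fold change. Resistant libraries (red) lie to the left of the parental ones (blue) for the genes that fell, and TRIB3 shows the widest gap (622 to 62.8 CPM).

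Genes of the unfolded protein response of the endoplasmic reticulum were mostly lower. Of 26 chaperone and sensor genes, 18 were lower, 4 higher and 4 did not pass (median -0.29, background 41.1% lower and 40.9% higher). HYOU1, an ER chaperone, was at 155, 161 and 157 CPM in the parental and 41.6, 34.3 and 40.1 CPM in the resistant libraries (log2 change -2.01). ERN1, the sensor IRE1, and its target XBP1 changed by -1.96 and -1.36, and the sensor ATF6 by -1.22. HSPA5, the chaperone BiP, fell from 514 to 311 CPM. MANF, CALR, PDIA4 and CANX rose by 0.42, 0.39, 0.33 and 0.27. Cytosolic heat shock genes leaned the other way, with 10 of 14 higher and 2 lower (same background), led by HSPA6 (0.85), HSPB1 (0.77) and DNAJB1 (0.64).

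Genes of cell division rose as a block. Each of the 34 mitosis and G2/M genes tested was higher in TC-71-R (background 40.9% higher), 26 of them 2-fold or more (background 4.85%). None had overlapping groups, which in either direction also held for 83.2% of all tested genes. The list was chosen with earlier results known, so these counts describe these data and are no independent test. The median change was 1.40 and the summed level was 892 to 916 CPM in the parental libraries and 2283 to 2363 CPM in the resistant ones. CCNB1 (chr5:69167010-69178245), the cyclin that with CDK1 starts mitosis, was at 20.7, 21.7 and 21.2 CPM in the parental and 108, 111 and 109.9 CPM in the resistant libraries, 5.17 times the parental mean (log2 change 2.32, SE 0.03, adjusted p = 1.18e-12). KIF20A, a kinesin of cytokinesis, was at 12.4, 12.4 and 11.98 CPM in the parental and 59.8, 62.1 and 60.4 CPM in the resistant libraries (log2 change 2.22). PTTG1, the securin that holds back chromatid separation, was at 8.74, 9.73 and 9.303 CPM in the parental and 44.04, 46.3 and 46.6 CPM in the resistant libraries (log2 change 2.19). DLGAP5, a spindle protein, was at 7.17, 7.499 and 7.296 CPM in the parental and 35.98, 34.1 and 36.2 CPM in the resistant libraries (log2 change 2.13). The same order held in every library: no parental value reached a resistant one. TOP2A, which untangles chromosomes, went from 74.5 to 251 CPM and MKI67, the proliferation marker, from 21.8 to 83.9 CPM. Smallest in the list was BUB3 of the spindle checkpoint (79.5 to 118 CPM, log2 change 0.57). Whether more cells were in mitosis or each cell held more of these transcripts cannot be told apart in bulk RNA.

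Replication genes rose in smaller steps. Of 40 S phase genes, 35 were higher, 2 lower and 3 did not pass, with a median of 0.78. TK1 and RRM2, which supply DNA precursors, were at 18.6 to 60.98 CPM and 7.78 to 21.5 CPM. ORC1 of the origin complex was at 9.42, 9.13 and 8.99 CPM in the parental and 28.4, 26.1 and 29.2 CPM in the resistant libraries (log2 change 1.5), and the repressor E2F8 at 2.28 to 8.02 CPM. Replication-dependent histone genes did not follow: 3 of 16 tested were higher and 9 lower. These transcripts are mostly not polyadenylated, and the labels do not say how RNA was selected. Regulators of G1 moved one by one, with 6 of 14 higher and 5 lower. CDKN2C, the CDK4/6 inhibitor p18, was at 7.8, 7.46 and 7.43 CPM in the parental and 32.5, 31.1 and 30.4 CPM in the resistant libraries (log2 change 1.92), while CDK6 was at 16.5, 15.1 and 16.3 CPM in the parental and 5.43, 5.32 and 5.23 CPM in the resistant libraries (-1.42). CCND1 was at 747 to 972 CPM and MYC at 646 to 573 CPM. DNA repair genes were mostly higher (26 of 40, 11 lower), with RAD54L (0.89) and CHEK1 (0.70) among the largest rises and LIG4, of end joining, at -1.08.

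The promoters of mitosis, S phase, stress response and synthetase genes were searched for short known motifs, as a description of sequence the members share. RefSeq starts (GRCh38.p14) were found for 28 of the 34 mitosis genes, 27 of the 34 stress response genes and 10293 of all tested genes. The 250 bases before each start were read on both strands, and a gene with several starts counted once if any of them held the motif. TTTGAA, the cell cycle homology region found near the starts of late cell cycle genes, stood before 18 of the 28 mitosis genes (64.3%), against 11.8% of all tested genes and 1 of 34 S phase genes. CCAAT stood before 25 of the 28 (41.6% of all). It also stood before 17 of 27 stress response genes, 20 of 34 S phase genes and 6 of 13 synthetase genes. TGATGNAA, the element bound by ATF4 with a C/EBP partner, stood before 5 of 27 stress response genes (18.5%) and 2 of 13 synthetase genes, against 2.23% of all. A match is a stretch of letters, not a shown binding site. The windows below, of 80 bases each, 5′ to 3′ on the gene's strand, hold a match in capitals and overlap no annotated exon. MKI67, TOP2A and KIF11 rose by 1.89, 1.74 and 1.40 on the log2 scale, and CEBPG and ATF3 changed by -2.47 and -2.03.
MKI67, chr10:128126424-128126503, minus strand: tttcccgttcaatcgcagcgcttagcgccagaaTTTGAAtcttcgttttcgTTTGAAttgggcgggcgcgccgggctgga
TOP2A, chr17:40418005-40418084, minus strand: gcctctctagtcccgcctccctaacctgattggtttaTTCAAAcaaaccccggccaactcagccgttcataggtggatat
KIF11, chr10:92593050-92593129, plus strand: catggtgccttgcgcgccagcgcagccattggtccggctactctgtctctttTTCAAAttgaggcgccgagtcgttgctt
CEBPG, chr19:33374033-33374112, plus strand: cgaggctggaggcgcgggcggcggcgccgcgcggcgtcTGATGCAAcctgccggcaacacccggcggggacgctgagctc
ATF3, chr1:212565180-212565259, plus strand: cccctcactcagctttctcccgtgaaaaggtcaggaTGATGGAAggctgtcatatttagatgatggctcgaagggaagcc

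Tubulin genes, whose products form microtubules, were mostly higher. Of 16 tested, 12 were higher, 2 lower and 2 did not pass (median 0.86, background 40.9% higher and 41.1% lower). TUBB4B was at 70.7, 68.1 and 70.98 CPM in the parental and 232, 211 and 243 CPM in the resistant libraries (log2 change 1.69, SE 0.05), TUBA1A at 55.4 to 159 CPM and TUBB4A at 26.6 to 75.2 CPM. TUBA4A and TUBE1 fell, by 1.27 and 1.17 on the log2 scale. TUBB was at 90.4, 89.7 and 87.8 CPM in the parental and 92.8, 264 and 103 CPM in the resistant libraries. Resistant library 2 carried most of the rise in the mean, and the change did not pass (adjusted p = 0.0793). Without that library the change was 0.13 and passed (adjusted p = 0.00426). Tubulin genes are near-identical in sequence, so reads may have been split or lost among them.

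Proteins that bind microtubules changed in both directions (14 higher and 10 lower of 29). STMN1, stathmin, which takes tubulin out of the polymer, was at 118, 123 and 119.6 CPM in the parental and 419, 382 and 429.7 CPM in the resistant libraries (log2 change 1.77). TACC3 and KIF2C of the spindle were at 39.99 to 122 CPM and 23.2 to 59.6 CPM. MAP1B, a neuronal microtubule stabilizer, was at 53.9, 51.4 and 52.3 CPM in the parental and 9.003, 9.98 and 9.09 CPM in the resistant libraries (log2 change -2.37), and MAP2 and the plus-end protein CLIP1 changed by -1.58 and -1.68.

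**Figure D4:**
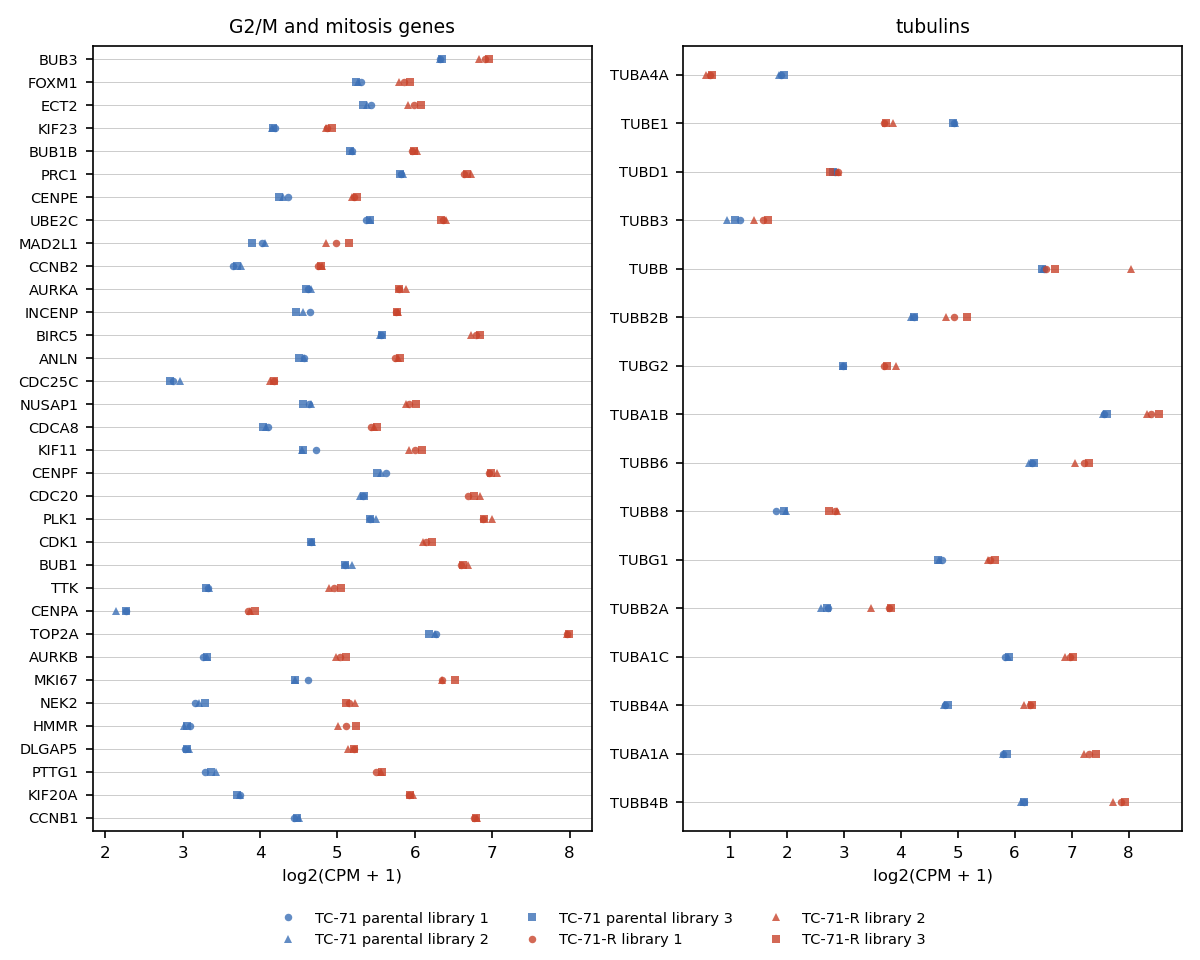
Level of 34 G2/M and mitosis genes (left) and 16 tubulin genes (right) in each library, as log2(CPM + 1), ordered by log2 fold change. Every mitosis gene is higher in each resistant (red) than in each parental (blue) library, and TUBB in resistant library 2 (264 CPM) stands apart from the other 5. Groups did not overlap, in either direction, for 83.2% of all tested genes.

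Known EWS-FLI1 targets moved in both directions. Of 37 activated targets tested, 18 were higher, 12 lower and 7 did not pass (median 0.10). VRK1, a mitotic kinase, was at 30.1, 32.8 and 30.8 CPM in the parental and 95.1, 87.7 and 98.5 CPM in the resistant libraries (log2 change 1.56). UGT3A2, KDSR and STEAP2 also rose (1.25, 1.04 and 1.03). The lipid hydrolase ABHD6 was at 33.3, 32.1 and 33.9 CPM in the parental and 9.57, 8.72 and 9.87 CPM in the resistant libraries (log2 change -1.72), and the neuropeptide Y receptor NPY1R, the phosphatase inhibitor PPP1R1A and GLI1 changed by -1.42, -1.02 and -0.94. NKX2-2 did not pass, and NR0B1 rose by 0.10. Of 15 repressed targets, 7 were higher and 6 lower. IGFBP3, which binds insulin-like growth factors, was at 0.561, 0.507 and 0.632 CPM in the parental and 7.43, 7.63 and 7.62 CPM in the resistant libraries (log2 change 2.45), while TNC, the matrix protein tenascin C, was at 28.03, 25.8 and 29.1 CPM in the parental and 3.302, 4.01 and 3.52 CPM in the resistant libraries (-2.64). The balance of the repressed list turned with scaling: 6 were higher and 8 lower when libraries were scaled to their named genes.

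Other ETS factors changed more than FLI1. ETS2 was at 39.7, 39.8 and 40.1 CPM in the parental and 214, 219 and 209 CPM in the resistant libraries (log2 change 2.4, adjusted p = 8.29e-13). FEV, a neuronal ETS factor that is itself a rare fusion partner of EWS, was at 2.71, 2.34 and 2.14 CPM in the parental and 15.5, 14.4 and 14.2 CPM in the resistant libraries (log2 change 2.21), and ETS1 at 4.25, 3.54 and 3.67 CPM in the parental and 17.2, 15.6 and 16.6 CPM in the resistant libraries (1.86). ETV5 rose by 1.48, and ETV1 fell from 18.9 to 5.21 CPM. In all, 8 of 16 tested ETS genes were higher and 7 lower, and with libraries scaled to their named genes 6 were higher and 7 lower. Among surface proteins studied as Ewing sarcoma targets, 6 of 17 were higher and 10 lower. STEAP1, STEAP2, LIPI and ENPP1 rose by 0.96, 1.03, 1.00 and 1.06. The kinase EPHA2, the NKG2D ligand ULBP1 and the orphan receptor ROR1 changed by -1.59, -1.32 and -1.26. IGF1R did not pass (51.5 to 50.04 CPM).

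Among the few efflux pumps of the ABC family that were tested, more were lower than higher. Of 8 tested, 5 were lower and 1 higher (background 41.1% and 40.9%). With MVP counted in, 5 of 9 were lower in the main test and 4 of 9 with DESeq2. The set is too small to read a shift of the family from these counts. ABCB1, the P-glycoprotein that exports many drugs, was at 6.05, 5.98 and 5.57 CPM in the parental and 1.24, 1.28 and 1.402 CPM in the resistant libraries (log2 change -1.57, SE 0.06), and ABCC4 fell from 59.3 to 26.6 CPM. ABCG2 stayed under 1 CPM in every library (0.744 to 0.254 CPM). ABCA2 rose by 0.21, and the vault protein MVP, also linked to drug resistance but no ABC pump, by 0.18.

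Drug-oxidizing and conjugating enzymes leaned upward, with 16 of 26 higher, 6 lower and 8 up 2-fold or more (background 40.9%, 41.1% and 4.85%). Besides FMO1, its neighbours in the flavin monooxygenase family rose: FMO4 was at 2.41, 2.54 and 2.71 CPM in the parental and 16.9, 16.1 and 16.4 CPM in the resistant libraries (log2 change 2.30), FMO2 at 2.11 to 7.02 CPM and FMO5 at 1.52 to 4.13 CPM. Glutathione transferases GSTM3, MGST3 and GSTO1 rose by 1.54, 1.28 and 1.14, and MGST2 fell by 1.13 on the log2 scale. The oxidative stress programme of NRF2 was mixed (10 higher and 11 lower of 23). AKR1C3 was at 0.596, 0.5796 and 0.577 CPM in the parental and 13.9, 13.9 and 13.3 CPM in the resistant libraries, whereas its relative AKR1B1, aldose reductase, was at 256, 259 and 279.6 CPM in the parental and 44.5, 40.5 and 46.01 CPM in the resistant libraries (log2 changes 3.21 and -2.57). NQO1 rose by 0.69, and HMOX1 fell from 11.7 to 4.25 CPM.

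Genes of the p53 response and of cell death were split. Of 22 p53 targets, 13 were lower and 8 higher. PMAIP1, the death protein NOXA, was at 37.2, 34.3 and 35.4 CPM in the parental and 9.58, 9.61 and 10.5 CPM in the resistant libraries (log2 change -1.75), and GDF15 and SESN2, both also on the ATF4 list, had the largest falls. BTG2 and SESN1 rose by 1.08 and 1.05. In the BCL2 family, BAX was at 23.2, 23.99 and 24.2 CPM in the parental and 49.04, 52.9 and 47.2 CPM in the resistant libraries (log2 change 1.03). The protector BCL2L1 (BCL-XL) and the activator BCL2L11 (BIM) fell together, from 21.4 to 9.22 CPM and 9.81 to 4.13 CPM, and BCL2 changed by -0.64.

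In metabolism, sterol synthesis was higher. Of 24 genes, 21 were higher, 2 lower and 1 did not pass (median 0.58, background 40.9% higher and 41.1% lower). FDPS of the mevalonate route was at 55.8, 56.4 and 55.7 CPM in the parental and 126, 136 and 131 CPM in the resistant libraries (log2 change 1.21), and MVK, an earlier enzyme of that route, rose from 3.203 to 7.43 CPM. Fatty acid synthesis did not go along (8 higher and 10 lower of 21), and FASN fell from 445 to 287 CPM. Nuclear genes of oxidative phosphorylation were mostly higher, 30 of 40 with 6 lower (same background), but none rose by 2-fold (median 0.28). NDUFA4 (0.91), ATP5C1 (0.85) and COX7B (0.70) were at the top. LDHA, lactate dehydrogenase, was at 233, 233 and 237 CPM in the parental and 521, 489 and 549.7 CPM in the resistant libraries (log2 change 1.14), while hexokinases HK1 and HK2 both changed by -0.81. Among hypoxia genes NDRG1 rose from 0.607 to 11.5 CPM and EPAS1, the factor HIF-2 alpha, from 3.25 to 15.6 CPM, whereas VEGFA fell from 152 to 44.8 CPM.

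RNA processing genes showed modest shifts. Of 44 splicing factors, 25 were higher and 12 lower, led by HNRNPA1 (728 to 1381 CPM) and HNRNPD (195 to 358 CPM). The epithelial splicing factor ESRP1 had the largest fall of the list, at 12.7, 13.3 and 13.9 CPM in the parental and 1.39, 1.796 and 1.402 CPM in the resistant libraries (log2 change -2.50). DEAD and DEAH box helicases, the family of DHX9, divided evenly, 18 higher and 18 lower of 44, all under 2-fold. NPM1, a nucleolar protein, rose from 578 to 1182 CPM. The small nucleolar RNA hosts SNHG17, ZFAS1 and GAS5 changed by -1.30, -1.16 and -0.88. Mitochondrially encoded messages were less steady: 4 of 13 rose, namely MT-CO3, MT-ATP8, MT-ATP6 and MT-CYB, and only the last had overlapping groups. Leaving out parental library 1 or 2 or resistant library 1 ended the MT-CYB call.

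HOX genes, which give cells their position along the body axis, moved in both directions. Of 31 tested, 12 were higher and 15 lower, and the 5 that fell 2-fold or more all lie in the HOXB cluster on chromosome 17. HOXB9 led, followed by HOXB6 (-1.49), HOXB5 (-1.28), HOXB7 (-1.12) and HOXB3 (-1.04). HOXB13 at the end of the same cluster rose by 0.86. HOXD13, a known EWS-FLI1 target, rose by 0.23.

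Matrix and contractile genes also parted ways. Among 22 tested collagens, 12 were higher and 10 lower, with 2-fold falls in 6 and a 2-fold rise in 1. COL16A1 was at 45.2, 44.8 and 44.2 CPM in the parental and 4.24, 5.19 and 4.24 CPM in the resistant libraries (log2 change -3.05), COL24A1 fell from 22.7 to 4.75 CPM, and COL27A1 of cartilage rose from 13.9 to 41.1 CPM. Decorin (DCN), a small matrix proteoglycan, was at 3.88, 3.91 and 4.09 CPM in the parental and 32.3, 26.7 and 32.4 CPM in the resistant libraries (log2 change 2.66), and its relative LUM at 3.99 to 15.1 CPM. The collagenase activator MMP14 was at 49.9, 52.03 and 52.2 CPM in the parental and 13.5, 13.9 and 14.3 CPM in the resistant libraries (-1.81). Of 16 contractile genes 11 were higher, including VCL (52.2 to 100.3 CPM), and TPM1 fell from 10.9 to 4.55 CPM. Epithelial markers were lower for 7 of 10 tested and higher for 3. CLDN1 of tight junctions was at 83.03, 78.5 and 81.8 CPM in the parental and 23.3, 20.9 and 25.2 CPM in the resistant libraries and KRT18 at 17.8, 17.8 and 18.5 CPM in the parental and 3.598, 4.301 and 4.43 CPM in the resistant libraries. Their log2 changes were -1.77 and -1.90.

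Neural, channel and receptor genes moved in both directions. Voltage-gated and potassium channels had 17 higher and 15 lower of 36. The T-type calcium channel CACNA1G was at 7.14, 6.54 and 7.15 CPM in the parental and 38.3, 38.2 and 37.6 CPM in the resistant libraries (log2 change 2.30). KCNH2, the hERG channel, was at 10.3, 9.79 and 9.99 CPM in the parental and 1.42, 1.36 and 1.58 CPM in the resistant libraries (-2.17). Purinergic receptors were mostly lower (8 of 12, 3 higher). Besides P2RX7, P2RY1 was at 35.8, 32.4 and 33.8 CPM in the parental and 5.24, 4.58 and 4.93 CPM in the resistant libraries (-2.56) and P2RX5 at 8.001 to 2.08 CPM. L1CAM, an axon adhesion protein, rose by 1.62, while NEFL and NES, both intermediate filaments of nerve cells and their precursors, changed by -1.50 and -1.51. The tachykinin precursor TAC1 was at 6.595, 7.12 and 6.96 CPM in the parental and 0.548, 0.485 and 0.423 CPM in the resistant libraries (-2.41).

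Signalling genes also moved in both directions. Regulators of RAP1 were more often lower than higher, 10 against 3 of 17 (background 41.1% lower and 40.9% higher). RAPGEF3 (EPAC1), which activates RAP1 in response to cyclic AMP, was at 18.3, 17.5 and 17.2 CPM in the parental and 0.829, 1.26 and 0.969 CPM in the resistant libraries (log2 change -3.21), opposite to the rise of RAP1GAP2. Targets and partners of YAP and TEAD had 14 of 21 lower and 5 higher (same background). VGLL2 (-2.02), VGLL3 (-1.68) and AXL (-1.06) led the falls. WNT5A, a non-canonical WNT ligand, was at 50.5, 49.9 and 50.4 CPM in the parental and 8.94, 8.38 and 9.06 CPM in the resistant libraries (-2.39), while its receptor family members FZD1 and FZD2 rose by 1.18 and 0.99. SPRY2, a feedback inhibitor of ERK signalling, was at 5.64, 5.81 and 5.72 CPM in the parental and 0.859, 0.839 and 0.907 CPM in the resistant libraries (-1.85), and FGFR3 at 26.02, 24.9 and 25.3 CPM in the parental and 69.6, 71.5 and 69.1 CPM in the resistant libraries (1.43). MET fell from 11.8 to 3.83 CPM and EPHB2 rose from 1.45 to 5.34 CPM. In the IGF axis the binding proteins IGFBP3 and IGFBP5 rose, by 2.45 and 1.31, and the adaptor GRB10 fell from 122 to 65.9 CPM. The BMP target ID3 was uneven within groups, at 27.97, 30.9 and 18.2 CPM in the parental and 84.95, 92.3 and 48.4 CPM in the resistant libraries, and its call was lost in the fit of all 12 libraries (adjusted p = 0.111).

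Among the immune-related genes that passed the filter, more rose than fell. Of 23 interferon genes tested, 16 were higher and 4 lower (background 40.9% and 41.1%). A further 16 members of the list were under the filter and not tested. These moved both ways, with IRF7 at 0.445 to 0.0284 CPM and OAS1 at 0.016 to 0.281 CPM. OAS3 and IRF9 passed the filter only through the resistant libraries, and IFI44L and PARP14 only through the parental ones. The counts therefore describe the tested members only. IFI6 was at 2.46, 2.35 and 2.48 CPM in the parental and 13.96, 13.8 and 14.7 CPM in the resistant libraries (log2 change 2.14), the RNA sensor IFIH1 (MDA5) at 5.78, 5.98 and 5.38 CPM in the parental and 24.9, 25.6 and 23.9 CPM in the resistant libraries (1.94), and OAS3 at 0.0964 to 3.64 CPM. PARP14 fell from 5.19 to 0.372 CPM. Antigen presentation genes had 8 of 11 higher and 2 lower (same background). Among the higher were the peptide pump TAP1 (4.29 to 8.61 CPM) and the regulator NLRC5 (0.591 to 2.75 CPM). NLRC5 passed the filter only through the resistant libraries. Cancer-testis antigens were raised in 8 of 12 tested members, and with no filter on low values in 10 of 30 against 9 lower. PRAME was at 11.3, 12.1 and 12.1 CPM in the parental and 65.4, 67.5 and 63.8 CPM in the resistant libraries (2.37) and MAGEC1 at 1.85, 2.15 and 1.89 CPM in the parental and 34.6, 35.01 and 32.3 CPM in the resistant libraries (3.56). MAGEA12 rose by 2.29, whereas MAGEA3 and MAGEA6, which are close copies of each other, changed by -1.09 and -1.20. Reads of MAGE and GAGE copies may be split among them.

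A few genes were too variable among the resistant libraries for a call. The 6 widest ranges at a mean of at least 5 CPM were in MIF, AL365357.1, RPL7A, TUBB, RPS9 and METTL9. None passed the main test, though each passed under some alternative. RPL7A, a ribosomal protein, was at 819, 929 and 675 CPM in the parental and 1539.8, 373 and 1170.2 CPM in the resistant libraries. RPS9 was at 151, 206 and 215 CPM in the parental and 148, 438 and 215 CPM in the resistant libraries. The cytokine MIF was at 10.6, 11.8 and 0.477 CPM in the parental and 0.592, 0.643 and 17.4 CPM in the resistant libraries, so that 1 library of each group broke from the others in opposite directions. AL365357.1 was at 6.87, 6.798 and 6.099 CPM in the parental and 24.03, 1.101 and 22.97 CPM in the resistant libraries and METTL9 at 25.2, 17.8 and 17.6 CPM in the parental and 36.3, 24.5 and 13.1 CPM in the resistant libraries. Resistant library 2 held the odd value for RPL7A, RPS9, TUBB and AL365357.1, and resistant library 3 for MIF. Counts of these genes are uncertain in single libraries.

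The change in TC-71 was then set against that in A4573 by an interaction term in a fit of all 12 libraries, with no library shared between the 2 changes. Of 14335 genes, 11197 (78.1%) changed by a different amount in the 2 lines, 5439 more upward and 5758 more downward in TC-71. These are 37.9% and 40.2% of the genes. A4573-R differed from its own parent at 9708 of 13061 genes (74.3%), 38.9% higher and 35.4% lower. Among 7430 genes called in both lines, 4068 moved the same way and 3362 (45.2%) opposite ways. Of 188 genes called at 2-fold or more in both, 95 moved the same way and 93 opposite ways. The correlation of the changes across 12113 genes tested in both was r = 0.043, given as a description since genes are not independent.

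The ATF4 genes went opposite ways in the 2 lines. In A4573-R, 24 of 32 tested genes of the ATF4 list were higher and 1 lower than in its parent (background 38.9% and 35.4%), and 33 of the 34 had an interaction called as lower in TC-71. CHAC1 changed by -2.67 in TC-71 and 3.40 in A4573 (interaction -6.07), ATF3 by -2.03 and 3.00, and SESN2 by -2.57 and 2.50. The A4573-R libraries were uneven here. CHAC1 was at 44.3, 103 and 43.5 CPM in them, with library 2 the highest, and at 4.73, 4.61 and 4.55 CPM in their parent. Of the 33 interactions called as lower in TC-71, 31 to 33 were also called with any 1 of the 12 libraries left out. The starting levels also differed between the parents. The list summed to 3037, 3078 and 3127 CPM in the A4573 parental and 3914, 5020.1 and 3521 CPM in the A4573-R libraries, each below the 3 TC-71 parental libraries (7587 to 7716 CPM). TC-71-R, at 3315 to 3402 CPM, lay between the A4573 parental and the A4573-R libraries.

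Of the mitosis genes, 20 of 34 were higher and 5 lower in A4573-R, against 38.9% and 35.4% of all genes tested there. All 34 had an interaction called as higher in TC-71, also when any 1 of the 12 libraries was left out. Here too the parents started apart. The list summed to 4575, 4655 and 4656 CPM in the A4573 parental and 5323, 5172 and 5110.4 CPM in the A4573-R libraries, so that both TC-71 groups (892 to 2363 CPM) lay below them. CCNB1 was at 235, 241 and 241 CPM in the A4573 parental and 234, 230.4 and 245 CPM in the A4573-R libraries, which overlapped. Tubulin genes were higher in A4573-R for 11 of 15 and lower for 2 (same background). Doses differed between the lines, as did their parents, so a difference cannot be assigned to the line alone.

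**Figure D5:**
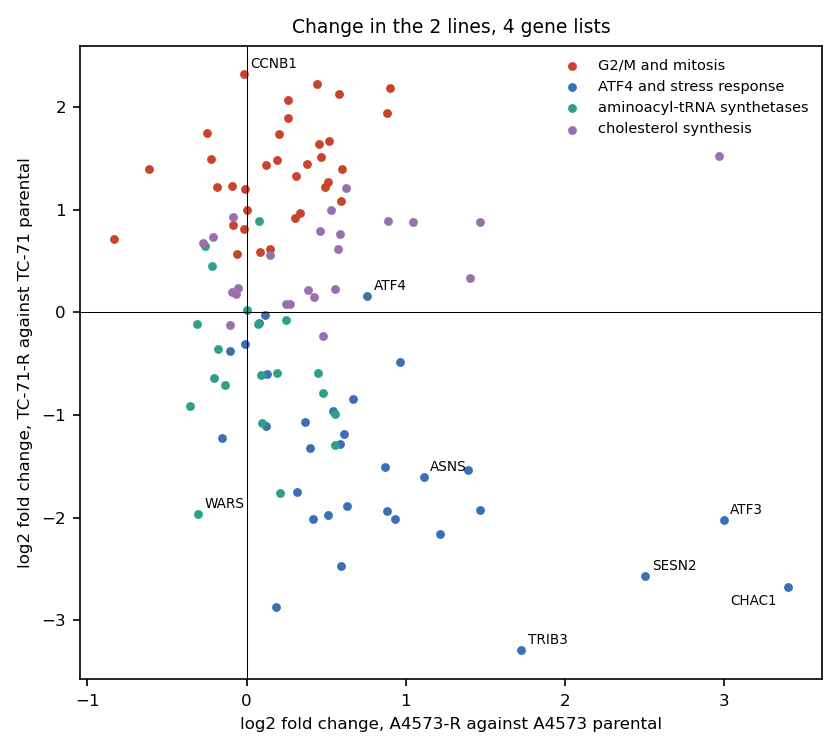
Log2 fold change in A4573-R against its parent (horizontal axis) and in TC-71-R against its parent (vertical axis) for the genes of 4 lists tested in both lines. Most ATF4 and stress response genes (blue) lie at the lower right, with CHAC1 at 3.40 and -2.67, and the mitosis genes (red) lie above 0 for TC-71 on both sides of 0 for A4573.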

How the data were processed

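RNA of the 12 libraries was sequenced, and only the 6 TC-71 libraries enter the main comparison. The authors deposited 1 signal value per gene and library. Per the submitters' processing notes, Trimmomatic, STAR 2.4, HTSeq and edgeR were used with GRCh38. In every library the deposited signal values were whole multiples of 1 read (100% within 0.001 reads), so they are reads per 1000000 of a scaled library size, called CPM here; the CPM unit assumed at the start was replaced by this. Rows sharing a symbol were summed and 5 rows with no name, holding 35.3% to 40.0% of TC-71 reads, were dropped. Genes with 1 CPM in 3 of 6 libraries were tested on log2(CPM + 1) with limma 3.58.1 (R 4.3.3, trended variance, Benjamini-Hochberg adjustment, threshold 0.05), and the difference between lines by an interaction in a fit of all 12 libraries. Scripts were tested on simulated data in which few genes changed, so that run does not check a difference as broad as this. Alternatives were other pseudocounts, filters, scalings and variance models, edgeR 4.0.16, DESeq2 1.42.0, a replicate block and leaving out each library.

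Genes named are EWSR1, FLI1 and DHX9, the 14 highest and 14 lowest changes with at least 5 CPM in the higher group and no overlap, the 6 largest gains and 6 losses in CPM, up to 4 members of each gene list, the 8 largest interactions per direction and the 6 widest ranges among TC-71-R libraries. Other list members named were chosen after their values were seen, and some genes that the rule chooses are not reported here. Members and lists were chosen with earlier results of these data known.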

Additional observations from a re-analysis of the deposited data

Results flagged for a closer look

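The change in TC-71-R minus the change in A4573-R, each against its own parent, was tested as an interaction (limma, 12 libraries), and the 8 largest in each direction among genes changed in TC-71-R are given on the log2(CPM + 1) scale. Higher in TC-71 by this difference were PEG10, an imprinted gene derived from a retrotransposon (6.95), RAP1GAP2 (6.82), GRIK3 (6.32), FMO1 (4.80), the neural and vascular factor ATOH8 (4.41), EPAS1 (4.30), the homeobox gene EN2 (4.28) and PAGE1 (4.15). PEG10 rose from 52.5 to 151 CPM in TC-71 (log2 change 1.5) and changed by -5.45 in A4573. Lower in TC-71 were ATF3 (-5.02), SESN2 (-5.07), INHBE (-5.10), the neuronal kinesin KIF5C (-5.48), HOXB9 (-5.92), LAMP3 (-5.99), CHAC1 (-6.07) and P2RX7 (-6.13). KIF5C fell from 22.03 to 2.97 CPM in TC-71 and changed by 2.94 in A4573. ATF3, SESN2 and CHAC1 of the ATF4 list rose in A4573-R, by 3.00, 2.50 and 3.40. ATF3 was at 39.1, 75.4 and 39.5 CPM in the A4573-R libraries and SESN2 at 67.5, 132 and 57.3 CPM, with library 2 the highest for both. INHBE stayed under 2 CPM in every A4573 library. Groups of 3 libraries were too small to screen for single outlying samples.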

How the results depend on the processing

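Of 21 alternatives, 1 moved a main count by more than 1.5 times: requiring a mean of 5 CPM left 978 genes changed 2-fold or more (482 higher, 496 lower) in place of 1483, by its construction. Within that limit the 2-fold count still depended on the pseudocount and the test. It was 1075 with a pseudocount of 2, 1926 with one of 0.25, 2111 with edgeR and 2117 with DESeq2. Leaving out 1 library gave 10462 to 11243 changed genes, 1462 to 1489 changed 2-fold, 10884 to 11220 interactions, and a difference in mitochondrial share of -0.523 to 0.385 percentage points, which turned positive without parental library 3 (0.132) or TC-71-R library 3 (0.385). Scaling to named genes gave 4760 higher and 6126 lower. Quantile normalization turned 6 called genes, and no other alternative turned any. Among 262 named genes, 5413 of 5452 values kept direction and call. Those that turned were not called in the main test or where they turned: AL365357.1 (-0.10 without TC-71-R library 1 and -0.06 without library 3; leave-one-out range -0.10 to 1.69), METTL9 (-0.14 without library 1; range to 0.56), RPL7A (-0.18 by quantile; range -0.28 to 0.74) and RPS9 (-0.31 with library weights; range -0.079 to 0.70); the cause was not tested. EWSR1, ID3, MT-CYB and MYH3 lost their call somewhere. Calls were gained by TUBB with edgeR (0.79) and without any 1 TC-71-R library, by AL365357.1 (1.60), METTL9 (0.77), RPL7A (0.82) and MIF (-1.70) with library weights, and by AL365357.1 and RPL7A without library 2, METTL9 and MIF (-1.90) without library 3 and RPS9 without library 1. With the replicate block, 10911 genes were called, 1483 at 2-fold and 11236 interactions. The block gave TUBB a call (adjusted p = 0.0281). Same-numbered libraries deviated with correlations of -0.105, 0.018 and -0.097, so the numbers are not treated as pairs. Of 2604 list counts, 69 moved by more than 1.5 times. At these depths, genes under 1 CPM in more than 3 libraries were not tested.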

Other observations

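The counts of further gene lists are given here with some of their members. In the TGF-beta and BMP pathway, 13 of 34 tested genes were higher and 19 lower. TGFBR3, the co-receptor betaglycan, was at 9.62, 9.82 and 10.5 CPM in the parental and 2.503, 1.72 and 2.08 CPM in the resistant libraries (log2 change -1.83), and the BMP antagonist NOG changed by -1.36. The WNT pathway had 8 of 25 higher and 13 lower, and NOTUM, which inactivates WNT ligands, rose by 1.20. Notch genes had 8 of 25 higher and 10 lower: the ligand DLL1 and the modifier LFNG rose by 1.10 and 0.99, and the ligand JAG1 and the target HEY1 changed by -1.04 and -1.02. Hedgehog genes divided 7 to 7, with the co-receptor BOC at 1.28, the factor GLI3 at -1.29 and the ligand trap HHIP at -1.12. Axon guidance genes had 18 of 35 higher and 15 lower. The semaphorin SEMA5B was at 0.883, 0.906 and 1.01 CPM in the parental and 5.32, 5.27 and 5.21 CPM in the resistant libraries (1.70), the netrin receptor UNC5A rose by 1.56, and SEMA3D changed by -1.46. Among cadherins, 8 were higher and 8 lower, and PCDH17 was at 34.9, 33.7 and 33.7 CPM in the parental and 6.28, 6.58 and 6.97 CPM in the resistant libraries (-2.21).

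Chromatin genes of the polycomb, BAF and DNA methylation groups had 15 of 40 higher and 19 lower. The polycomb reader CBX7 was at 3.101, 2.98 and 3.29 CPM in the parental and 11.96, 14.6 and 11.4 CPM in the resistant libraries (1.72), while its relative CBX8 changed by -0.90. Imprinted genes were more often lower (10 of 17, 4 higher), with PEG10 rising by 1.5, KLF14 by 1.00, and GRB10 and SNRPN at -0.87 and -0.80. Ribosome biogenesis genes had 12 of 35 higher and 17 lower, and 1 of them rose 2-fold or more. NOP2, WDR12 and UTP20 of this list changed by under 2-fold. Autophagy and lysosome genes had 13 of 33 higher and 15 lower. The lysosomal protease CTSZ was at 51.5, 50.9 and 52.7 CPM in the parental and 8.38, 7.76 and 8.68 CPM in the resistant libraries (-2.51), and the membrane glycoprotein GPNMB rose by 1.71. Fibroblast markers were higher for 6 of 8 tested, with S100A4 at 2.72, 3.24 and 2.99 CPM in the parental and 9.86, 10.2 and 9.64 CPM in the resistant libraries (1.45) and COL3A1 at -1.13, and their summed level was 183 to 188 CPM in the parental libraries and 226 to 231 CPM in the resistant ones. Melanocyte and Schwann cell markers were lower for 2 of 3 tested.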
